A study of Mus musculus with 168 samples.

Results

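Mir132 and Mir212 are a pair of neighbouring microRNA genes, taken here as the rows of the cortex count table whose transcript carries either name in GENCODE vM21 (GRCm38). They are 2 of the 329 microRNAs of the study's list that have a row, and 2 of 1626 transcripts in all. Small RNA was sequenced from the cortex of C57BL/6 mice of the Htt CAG knock-in allelic series, 168 libraries in 21 groups of 8 mice, 4 females and 4 males each, aged 2, 6 or 10 months. The Q20, Q80, Q92, Q111, Q140 and Q175 mice were heterozygous, with one mouse Htt allele and one allele carrying a human HTT exon 1 with about the number of CAG repeats in the name. The WT mice were littermates of the Q20 line with mouse alleles only, whose CAG length was taken as 7. The mutation sits at the endogenous locus, so no transgene promoter or Cre restricts it to one cell type, and Q175 arose by spontaneous expansion within the Q140 line. Each library is one mouse. The controls were the Q20 and WT mice at 2 and 10 months (n = 16) and the Q20 mice alone at 6 months (n = 8), because the study's methods do not list 6-month WT cortex libraries, and these 8 libraries are shown apart.

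MicroRNAs are cut from hairpin precursors and loaded into Argonaute, where the seed, bases 2 to 8, pairs with target messenger RNAs and lowers their stability and translation. Mir132 and Mir212 are made from one primary transcript whose transcription is driven by CREB after synaptic activity or neurotrophin signalling. In neurons of the cortex they are known for promoting dendrite growth and spine formation and for shaping plasticity, with p250GAP among the targets described for miR-132.

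Both hairpins lie on the plus strand of chromosome 11 in intron 1 of the 3-exon noncoding transcript 1700016P03Rik (75172560 to 75177633). Mir212 (transcript ENSMUST00000083656) comes first at chr11:75173388-75173478, and Mir132 (ENSMUST00000083603) follows 203 bases downstream at chr11:75173682-75173747. The RefSeq hairpins (GRCm38.p6) are printed 5′ to 3′ with the mature arms in capitals, because the deposited counts are given per hairpin.
Mir212: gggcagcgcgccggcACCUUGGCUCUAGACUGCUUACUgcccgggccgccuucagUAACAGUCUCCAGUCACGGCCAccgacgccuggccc
Mir132: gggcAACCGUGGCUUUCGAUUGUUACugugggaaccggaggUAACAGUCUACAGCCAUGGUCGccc

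The mature sequences follow with the seed in capitals, since the shared seed is what makes these genes a family.
miR-132-3p: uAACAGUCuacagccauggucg
miR-212-3p: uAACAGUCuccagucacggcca
miR-132-5p: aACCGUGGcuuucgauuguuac
miR-212-5p: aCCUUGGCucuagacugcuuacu
Both 3p arms have the seed AACAGUC, and no other of the 1738 mature mouse sequences in the RefSeq table has it. The 3p arms are identical in the first 9 bases and in 17 of 22 positions. Counting from the 5′ end, with the base of miR-132-3p first, they differ by A10C, C14U, U17C, U20C and G22A. The 5p arms have different seeds, each found in a single mature sequence, and match at 9 of 22 positions. The arms could not be separated in these counts. Both genes had whole-number counts in every library (within 1e-06), so no Mir132 or Mir212 read had been divided between transcripts.

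Mir132 had a median of 35532 counts per library (12824 to 70331), or 0.726% of all counts, and Mir212 a median of 7009 (3065 to 15767), or 0.145%. By mean count they ranked 21 and 51 in the study's list. Library totals ran from 2041741 to 11646287 counts, with a median of 4810487. Levels are given below as CPM, counts scaled to a common library size after TMM normalization across all 168 libraries. Less Mir132 or Mir212 RNA per cell and fewer of the cells that make it cannot be told apart in bulk cortex.

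At 2 months neither microRNA passed the test between any mutant genotype and the controls. Mir132 was at 6741 CPM in the lowest of 16 control mice, 7409 CPM at the median and 8925 CPM in the highest. In Q175 mice it ran from 6769 CPM over a median of 7363 CPM to 8179 CPM, wholly inside the control range. Mir212 ran from 1340 CPM over 1528 CPM to 1789 CPM in the controls and from 1440 CPM over 1533 CPM to 1657 CPM in Q175 mice, again inside the control range. The log2 fold changes of Q175 against controls were -0.05 (SE 0.05; 95% interval -0.15 to 0.06) for Mir132 and 0.00 (SE 0.04; 95% interval -0.08 to 0.08) for Mir212, with adjusted p = 0.907 and 0.995 (edgeR quasi-likelihood test, Benjamini-Hochberg over 327 microRNAs). In this comparison, and in those of Q80, Q92, Q111 and Q140 mice at 2 months, 0.0% of microRNAs passed FDR 0.05 (19, 27, 48, 16 and 8 with an unadjusted p under 0.05). DESeq2's Wald test called 0, 2, 9, 0 and 1 microRNAs in the same comparisons, neither gene among them. Q80 mice had the highest Mir132 mean of this age, 8529 ± 1117 CPM (SD, n = 8), with a log2 fold change of 0.18 (SE 0.06) that did not pass (adjusted p = 0.326).

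At 6 months Mir132 was lower in Q175 mice than in Q20 mice. The Q20 mice lay close together, between 6624 and 7200 CPM with a median of 6940 CPM. The Q175 mice ran from 5233 CPM over a median of 5786 CPM to 6450 CPM, so that all 8 lay below the lowest Q20 mouse. The log2 fold change was -0.21 (SE 0.05, adjusted p = 0.0356 over 325 microRNAs, 2.77% of which passed). Mir212 ran from 1254 CPM over 1336 CPM to 1505 CPM in Q20 mice and from 1080 CPM over 1281 CPM to 1351 CPM in Q175 mice. These groups overlapped, with 3 of 8 Q175 mice below the lowest Q20 mouse, and the log2 fold change of -0.12 (SE 0.06; 95% interval -0.24 to 0.00) did not pass (adjusted p = 0.351). Neither gene passed in Q80, Q111 or Q140 mice, where 0.0% of microRNAs did (21, 10 and 24 with an unadjusted p under 0.05, and 0, 0 and 5 called by DESeq2), nor in Q92 mice, where 0.311% did. Lane here means the L number in the name of a library, and the labels do not say what that number is. At this age the Q175 and Q20 libraries had no lane in common, so that lane and genotype cannot be told apart in these tests. Once the WT libraries of this age joined the controls, Mir132 no longer passed for Q175 (log2 fold change -0.23, adjusted p = 0.154), nor did it with library totals alone (-0.22, adjusted p = 0.0884).

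The libraries labelled 6-month WT were more spread than those of Q20 mice. Their Mir132 level was 6678 ± 1088 CPM (SD, n = 8), from 5662 to 8720 CPM, against 6917 ± 181 CPM in Q20 mice. Their Mir212 level was 1482 ± 254 CPM, from 1165 to 1984 CPM, against 1372 ± 95.5 CPM. Their normalization factors ran from 0.775 to 1.02, and those of Q20 libraries from 0.909 to 0.999.

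At 10 months both microRNAs were lower in Q175 mice, by a similar proportion. Mir132 ran from 6044 CPM over a median of 7725 CPM to 9401 CPM in the 16 controls and from 5353 CPM over 6081 CPM to 6509 CPM in the 8 Q175 mice. All 8 Q175 mice lay below the control median, and 1 of 16 controls lay below the highest Q175 mouse. Mir212 ran from 1137 CPM over 1522 CPM to 1734 CPM in the controls and from 1061 CPM over 1218 CPM to 1267 CPM in Q175 mice. Again all 8 lay below the control median, with 2 of 16 controls below the highest Q175 mouse. The mean level in Q175 mice was 78.7% of the control mean for both genes. The log2 fold changes were -0.36 (SE 0.06, adjusted p = 0.000121) for Mir132 and -0.36 (SE 0.06, adjusted p = 4.52e-05) for Mir212, in a comparison where 12.2% of 327 microRNAs passed. By p they ranked 6 and 5 of those 327.

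In Q140 mice, whose line gave rise to Q175, the 10-month levels fell between those of the controls and of Q175 mice. Mir212 was at 1301 ± 134 CPM (SD, n = 8), 85.6% of the control mean, and all 8 mice lay below the control median. Its log2 fold change of -0.22 (SE 0.07; 95% interval -0.36 to -0.09) did not pass (adjusted p = 0.140) although it ranked 5 of 327 by p, and 0.0% of microRNAs passed in Q140 mice at this age (35 with an unadjusted p under 0.05, and 1 called by DESeq2). When all genotypes of the age shared one fit it did pass (-0.22, adjusted p = 0.0176). Mir132 was at 7019 ± 749 CPM, 91.9% of the control mean, with a log2 fold change of -0.13 (SE 0.06, adjusted p = 0.452) and 6 of 8 mice below the control median. In Q111, Q92 and Q80 mice the 10-month means lay between 93.1% and 103% of the control mean, 0.0% of microRNAs passed (21, 23 and 4 with an unadjusted p under 0.05, and 1, 0 and 0 called by DESeq2), and neither gene passed. All 8 Q111 mice nevertheless lay below the control median for both genes. For Mir132 and Mir212 this held for 5 and 4 of 8 Q92 mice and for 3 and 5 of 8 Q80 mice.

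**Figure D1:**
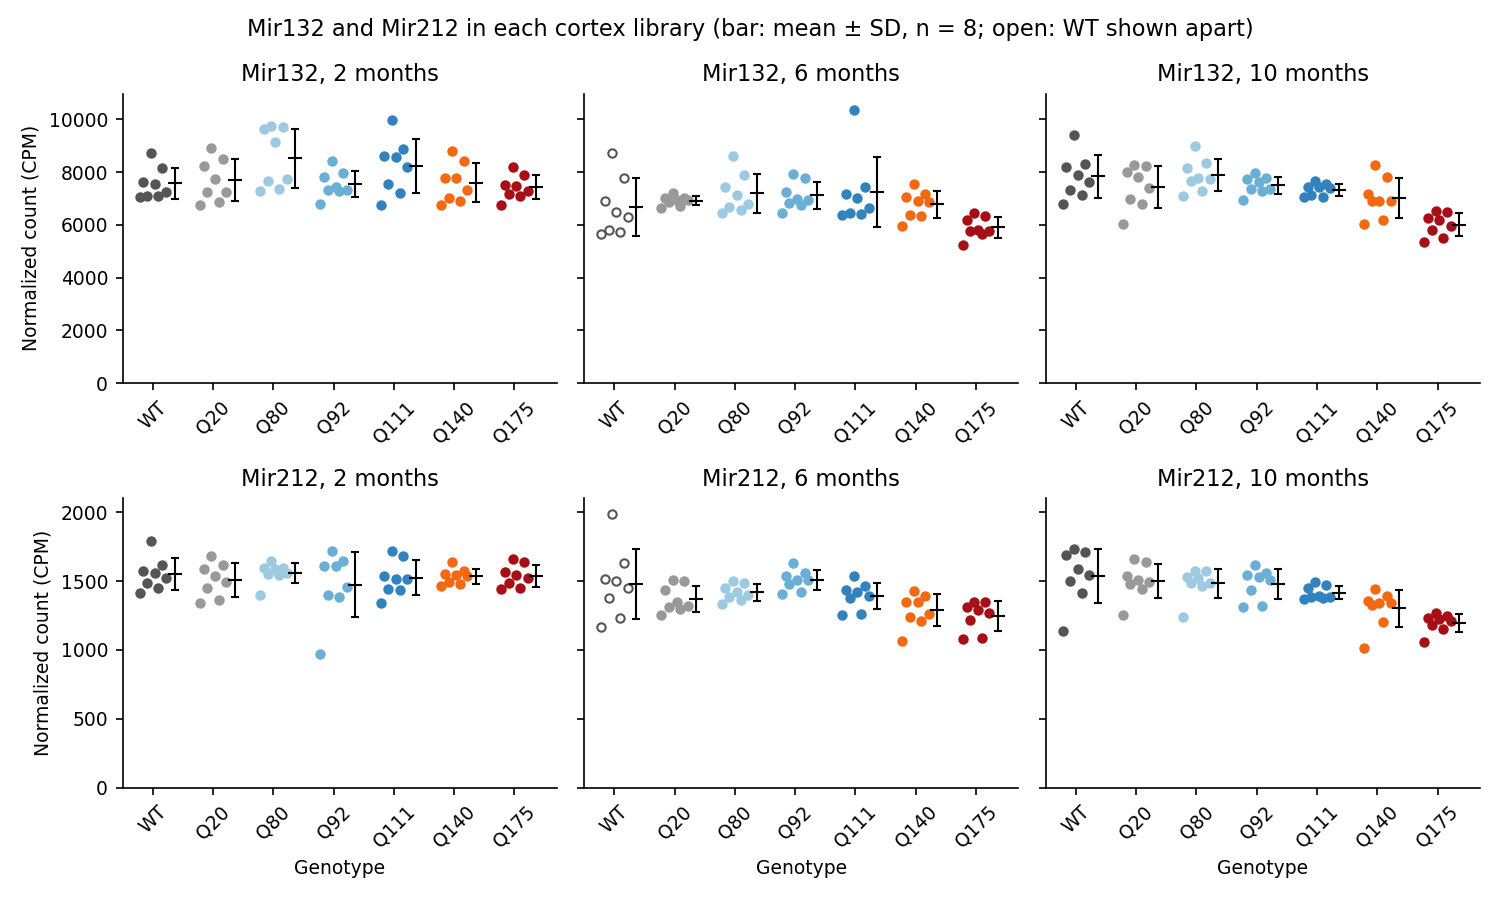
Normalized counts (CPM, vertical axes from 0) of Mir132 (top) and Mir212 (bottom) in each library by genotype at 2, 6 and 10 months. Points are mice, bars beside them the mean ± SD (n = 8), and open points the 6-month WT libraries shown apart. At 10 months the 8 Q175 mice sit between 5353 and 6509 CPM for Mir132 and between 1061 and 1267 CPM for Mir212.

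**Figure D2:**
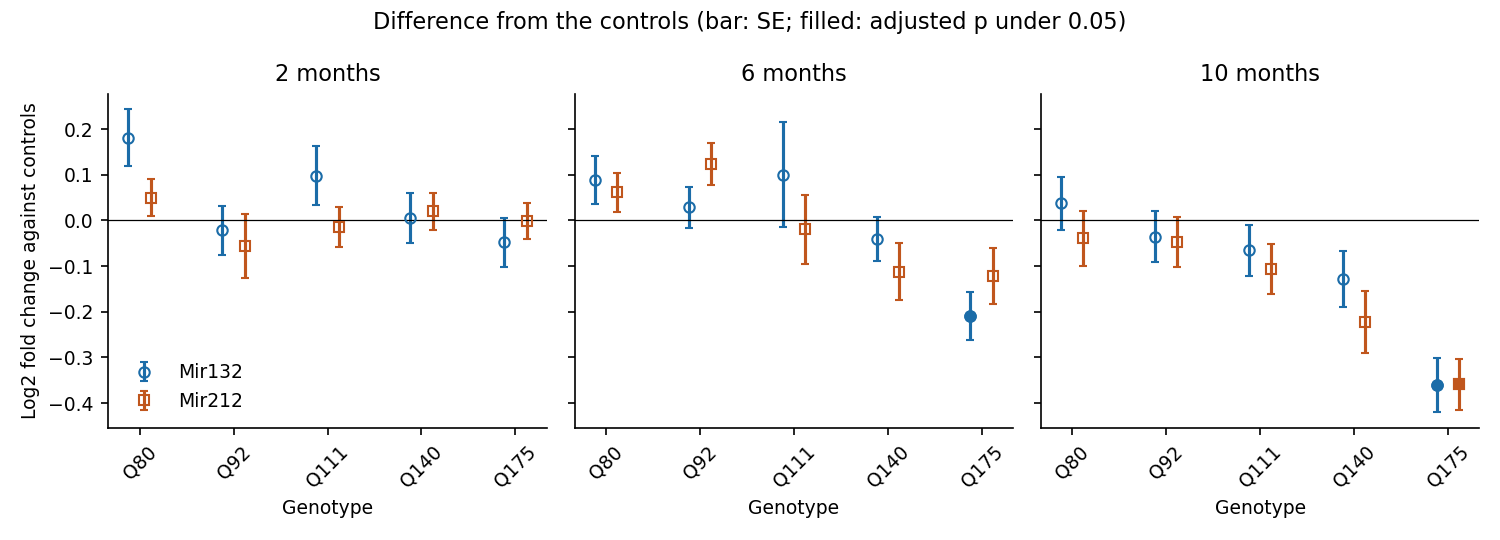
Log2 fold change of each mutant genotype against the controls of its age for Mir132 (circles) and Mir212 (squares), with the standard error as bars. Filled symbols passed FDR 0.05, which were Mir132 in Q175 mice at 6 months (-0.21) and both genes in Q175 mice at 10 months (-0.36 each).

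Pairs of genotypes were compared in one fit per age, with p-values adjusted over microRNAs within each pair and not over pairs. At 10 months the Q175 mice stood apart from the others. Mir132 was lower in Q175 mice than in each of the 6 other genotypes, Q140 included (-0.22, SE 0.06, adjusted p = 0.00987). Mir212 was lower in Q175 mice than in 5 of the 6, and the difference from Q140 mice was -0.13 (SE 0.06; 95% interval -0.25 to 0.00, adjusted p = 0.237). The shares of microRNAs past FDR 0.05 were 9.15% for Q175 against WT, 12.2% against Q20, 11.9% against Q80, 8.54% against Q92, 10.1% against Q111 and 5.49% against Q140. From the highest mean to the lowest, the 10-month order was Q80, WT, Q92, Q20, Q111, Q140 and Q175 for Mir132, while for Mir212 it followed CAG length from WT down to Q175. Of the 21 pairs at 10 months, the 6 called for Mir132 and the 5 called for Mir212 all involved Q175 mice. DESeq2 called 6 pairs for each gene, and 8 and 10 pairs had an unadjusted p under 0.05. Differences among the other genotypes are not excluded. For Mir212, Q140 less Q111 mice was -0.14 (SE 0.06; 95% interval -0.26 to -0.01, adjusted p = 0.437). Q140 less WT mice was -0.24 (SE 0.06, adjusted p = 0.0624). At 2 months 0 of the 21 pairs passed for either gene with edgeR or DESeq2, and 6 had an unadjusted p under 0.05 for Mir132 and 0 for Mir212.

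At 6 months Q175 mice had the lowest mean of both genes. Each gene was lower in Q175 than in 4 of the 5 other genotypes, Q140 being the exception (Mir132 -0.19, SE 0.07, adjusted p = 0.164, and Mir212 -0.05, SE 0.05, adjusted p = 0.669). The 5 pairs called for Mir212 also held Q140 against Q92 mice (-0.24, SE 0.05, adjusted p = 0.00877), where Mir212 was the 1 microRNA that passed, 0.306% of 327. Q92 mice had the highest Mir212 mean among the fitted groups, 1506 ± 71.4 CPM (SD, n = 8), against 1287 ± 116 CPM in Q140 mice. Shares past the threshold were 5.20% for Q175 against Q20, 1.83% against Q80, 4.89% against Q92, 3.67% against Q111 and 0.917% against Q140. These calls depended on the libraries and features used. With the libraries of one library code (LB) alone, this joint fit called Q175 against 0 of the 5 genotypes for Mir132 and against 1 for Mir212, and it no longer called Q140 against Q92 mice for Mir212. In the fit of Q175 and Q20 mice by themselves, Mir132 still passed with LB libraries alone (-0.23, SE 0.04, adjusted p = 0.00927), and Mir212 was at -0.14 (SE 0.06, adjusted p = 0.229).

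At 6 months Q175 mice were also compared with Q80 mice, and Q140 with Q92 mice, using only the lanes that both held. This comparison was chosen after seeing the data. Mice were pooled over those lanes, so lane was not held fixed. Lane 1 held 4 Q175 mice and 1 Q80 mouse, and lane 2 held 1 Q175 mouse and 5 Q80 mice. Lane and genotype thus stayed largely confounded in that pair. Lanes 5, 6 and 7 held 1, 1 and 2 Q140 mice and 4, 2 and 2 Q92 mice. In lanes 1 and 2 Mir132 was at 5971 ± 273 CPM in 5 Q175 mice and 7402 ± 750 CPM in 6 Q80 mice (SD). The highest Q175 mouse, at 6330 CPM, lay below the lowest Q80 mouse, at 6575 CPM. Mir212 was at 1260 ± 110 CPM and 1441 ± 48.3 CPM in the same mice, also without overlap. Both differences gave p = 0.00433 (exact permutation test, two-sided, n = 5 and 6; adjusted p = 0.00577 over 4 tests). In lanes 5, 6 and 7 Mir212 was at 1232 ± 133 CPM in 4 Q140 mice and 1506 ± 71.4 CPM in 8 Q92 mice (exact permutation p = 0.00404, adjusted p = 0.00577). For Mir132 in these lanes the values were 6518 ± 438 CPM and 7112 ± 513 CPM (exact permutation p = 0.0727).

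With CAG length as a number, both microRNAs fell as the repeat grew longer at 10 months, where 8.84% of 328 microRNAs passed FDR 0.05. Per 100 CAG the log2 coefficient was -0.17 (SE 0.03, adjusted p = 9.53e-05) for Mir132 and -0.20 (SE 0.03, adjusted p = 8.69e-06) for Mir212. At 6 months Mir212 passed (-0.13, SE 0.04, adjusted p = 0.0476) and Mir132 did not (-0.14, SE 0.05, adjusted p = 0.109), with 2.75% of 327 microRNAs past the threshold. At 2 months the coefficients were -0.02 (SE 0.04) and 0.00 (SE 0.03), and 0.0% passed (13 with an unadjusted p under 0.05, and 0 called by DESeq2). Combined over 6 and 10 months, where 11.9% passed, the Z was -5.35 for Mir132 and -6.03 for Mir212 (adjusted p = 4.78e-06 and 2.66e-07). These calls rested on the Q175 mice. Without them the 10-month coefficients were -0.078 (SE 0.04, adjusted p = 0.483) for Mir132 and -0.14 (SE 0.04, adjusted p = 0.111) for Mir212, and the combined Z was -1.38 and -2.97 (adjusted p = 0.625 and 0.123). At 6 months without Q175 mice the coefficient of Mir132 was 0.0088 (SE 0.06, adjusted p = 0.963) and that of Mir212 -0.052 (SE 0.05, adjusted p = 0.808).

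Lanes at 10 months held controls and Q175 mice together. In lane 6 Mir132 was at 6073 ± 509 CPM in 3 Q175 mice and 7725 ± 606 CPM in 7 controls, in lane 7 at 6014 ± 490 CPM in 4 and 7881 ± 1395 CPM in 4, and in lane 8 at 5816 CPM in 1 and 7326 ± 442 CPM in 5. Mir212 was at 1202 ± 46.8 and 1542 ± 169 CPM in lane 6, 1184 ± 89.7 and 1567 ± 123 CPM in lane 7, and 1228 and 1453 ± 181 CPM in lane 8. Every Q175 mouse lay below the control median of its own lane for both genes. With lane as a covariate the log2 fold changes were -0.38 for both (adjusted p = 0.000125 for Mir132 and 5.23e-05 for Mir212).

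The CAG length coefficient of Mir212 was lower at 10 than at 2 months (difference -0.20 per 100 CAG, SE 0.04, adjusted p = 0.00116, interaction of age and CAG length, 1.83% of 328 microRNAs past the threshold). For Mir132 the difference was -0.17 (SE 0.05) and did not pass (adjusted p = 0.0569). In the controls neither gene passed between 10 and 2 months. Mir132 changed by 0.01 (SE 0.05; 95% interval -0.09 to 0.11, adjusted p = 0.911) and Mir212 by 0.00 (SE 0.04; 95% interval -0.08 to 0.08, adjusted p = 0.959), although 49.7% of microRNAs passed in that comparison. In Q175 mice the log2 difference of 10 less 2 months was -0.30 for Mir132 (SE 0.05, adjusted p = 0.000122) and -0.36 for Mir212 (SE 0.05, adjusted p = 8.2e-06), where 39.3% of 323 microRNAs passed. The 2-month and 10-month libraries carry separate ranges of numbers in their names, and the labels do not say how they were sequenced. Age and library set thus cannot be told apart within one genotype.

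Both sexes of Q175 mice had lower levels at 10 months. Mir132 was at 6021 ± 443 CPM in 4 Q175 females and 7819 ± 773 CPM in 8 control females (SD). In males it ran from 5353 to 6490 CPM in 4 Q175 mice and from 6044 to 8314 CPM in 8 controls. Mir212 ran from 1152 to 1229 CPM in Q175 females and from 1504 to 1734 CPM in control females, without overlap, and from 1061 to 1267 CPM in Q175 males and from 1137 to 1708 CPM in control males. No difference between the sexes in the CAG length coefficient was detected by the interaction over 6 and 10 months, with male minus female differences of 0.00 (SE 0.05) for Mir132 and 0.04 (SE 0.05) for Mir212 (95% intervals -0.11 to 0.10 and -0.05 to 0.14; both adjusted p at least 0.971). That test called 0.0% of 328 microRNAs (18 with an unadjusted p under 0.05, and 0 called by DESeq2).

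Mir132 gave about 5 counts for each Mir212 count. No difference in this ratio between Q175 mice and controls, and no trend with CAG length, was detected. Other pairs of genotypes were not tested for the ratio. At 6 months its fitted group means ran from 4.72 ± 0.268 in Q92 mice to 5.27 ± 0.190 in Q140 mice (SD, n = 8 each). Over the 168 libraries it ran from 3.92 to 8.15, with a median of 5.03. On the scale per length that the deposited FPKM gives, the median ratio was 4.53, with the caveat that the FPKM of Mir132 rests on a length of 101 bases and the vM21 hairpin has 66. At 10 months the ratio was 5.06 ± 0.611 (SD, n = 16) in the controls and 5.05 ± 0.524 (SD, n = 8) in Q175 mice. The mean log2 ratio of Q175 mice less that of controls was 0.00, -0.09 and -0.05 at 10, 6 and 2 months (exact permutation tests, two-sided, p = 0.997, 0.0960 and 0.425; adjusted p = 0.997, 0.576 and 0.876 over 6 tests). Across mice the log2 ratio had a Pearson r with CAG length of -0.04, -0.08 and 0.08 at 2, 6 and 10 months (Spearman rho -0.13, -0.06 and 0.10; n = 56, 48 and 56; permutation p = 0.758, 0.584 and 0.555 for r and 0.329, 0.674 and 0.457 for rho; adjusted p from 0.876 to 0.910 for r and from 0.685 to 0.809 for rho). Without 2 mice of the genotype farthest from the median CAG length (WT, or Q20 at 6 months) r was -0.03, -0.01 and 0.08. All mice of that genotype are equally far, so the choice of these 2 was arbitrary. A ratio within a library needs no scaling between libraries.

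**Figure D3:**
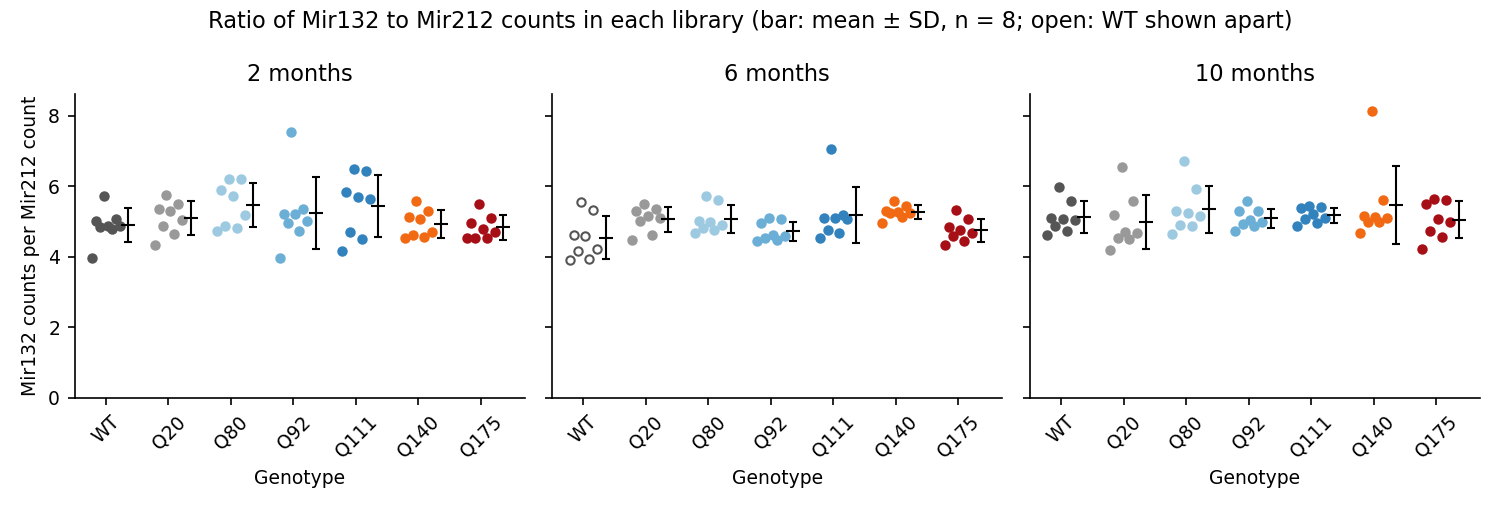
Mir132 counts per Mir212 count in each library (vertical axis from 0) by genotype at 2, 6 and 10 months. Points are mice, bars the mean ± SD (n = 8), and open points the 6-month WT libraries. Group means lie between 4.55 and 5.48, and single mice reach 7.55 (Q92, 2 months), 7.06 (Q111, 6 months) and 8.15 (Q140, 10 months).

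Between mice of one genotype the levels of both genes varied together at 6 months. With the genotype mean removed from log2 CPM, Pearson r was 0.55 and Spearman rho 0.64 (n = 48, permutation within genotypes, p = 1e-05 for each, the smallest that 100000 resamples can give; adjusted p = 3e-05 over 3 ages). At 2 months r was 0.17 and rho 0.24 (n = 56, permutation p = 0.176 and 0.0813; adjusted p = 0.264 and 0.111), and at 10 months r was 0.13 and rho 0.23 (n = 56, permutation p = 0.426 and 0.111; adjusted p = 0.426 and 0.111). Without the 2 mice farthest from the median of Mir132, r was 0.15, 0.62 and 0.07 at 2, 6 and 10 months. That check went by Mir132 alone and kept mice far off in Mir212. At 2 months Q92 female F1 lay at -0.04 for Mir132 and -0.58 for Mir212. At 10 months Q140 female F2 lay at 0.24 and -0.35, and WT male M4 at -0.20 and -0.43. How far r rests on these mice was not tested. Within the LB libraries of 6 months r was 0.53 (n = 37) and within those with the V code 0.70 (n = 11). By lane r was -0.07 (n = 14) and 0.22 (n = 26) in lanes 1 and 2 at 2 months and 0.11 (n = 21), -0.23 (n = 23) and 0.76 (n = 8) in lanes 6, 7 and 8 at 10 months. The last fell to 0.24 without its 2 farthest mice. Whether r differs between ages was not tested. Among the 263 other microRNAs with a mean of at least 10 counts, Mir132 ranked 2 by r with Mir212 at 6 months, and Mir212 ranked 18 by r with Mir132. At 2 and 10 months the partner ranked between 46 and 85. Both values of a mouse come from one library and share its depth and scaling.

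**Figure D4:**
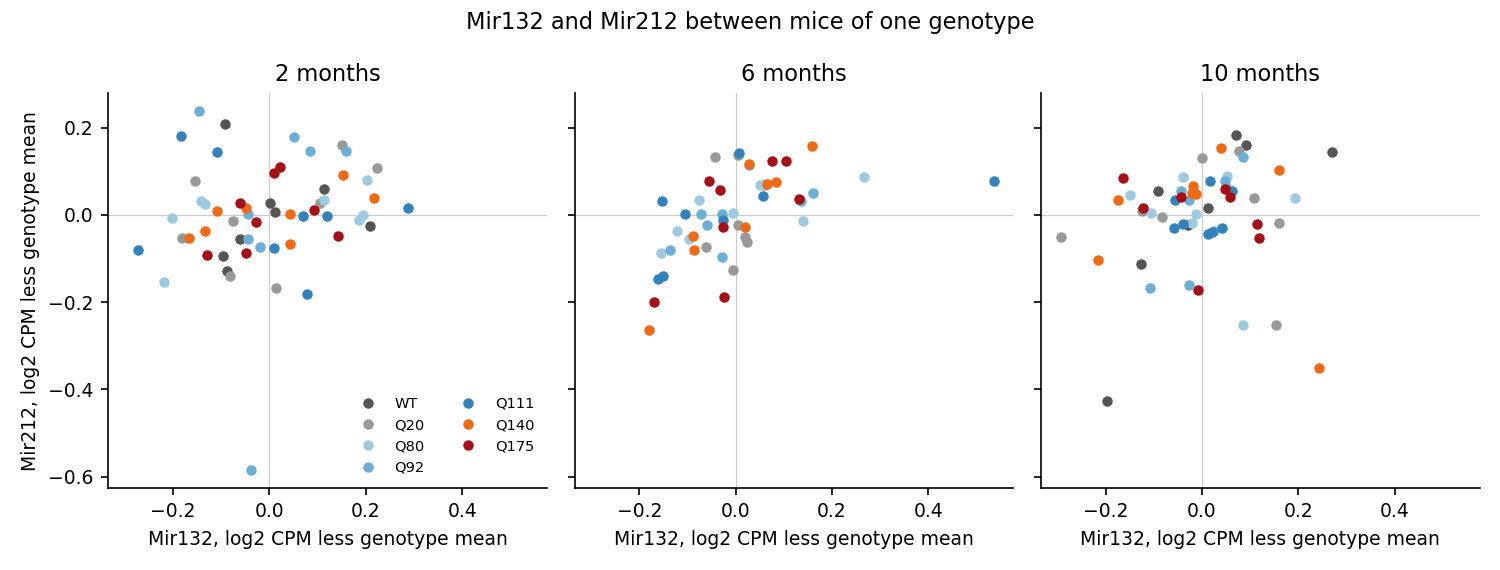
Mir212 (vertical) against Mir132 (horizontal) in each mouse at 2, 6 and 10 months, as log2 CPM less the mean of the mouse's genotype, coloured by genotype. At 6 months the points rise together (r = 0.55), and at 2 and 10 months r over all mice was 0.17 and 0.13.

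The microRNAs whose pattern over genotypes and ages was most like that of each gene were taken by Pearson r over 20 group means of log2 CPM, each less the mean of its age. These r are descriptions over 20 groups that share libraries. For Mir132 the highest were Mirlet7i (0.85), Mir221 (0.84), Mir212 (0.84), Mir135b (0.81) and Mir222 (0.80). For Mir212 they were Mir135b (0.89), Mir132 (0.84), Mir674 (0.80), Mir3093 (0.78) and Mir34a (0.77). Thus of 263 microRNAs the partner ranked 3 for Mir132 and 2 for Mir212. None of the others lies on chromosome 11. Mir221 and Mir222 are neighbours on chromosome X, and Mir34a is known as a p53 target. All 7 others fell in Q175 mice at 10 months, a group that entered the choice, with log2 fold changes from -0.60 (SE 0.07) for Mir135b to -0.18 (SE 0.04) for Mirlet7i.

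**Figure D5:**
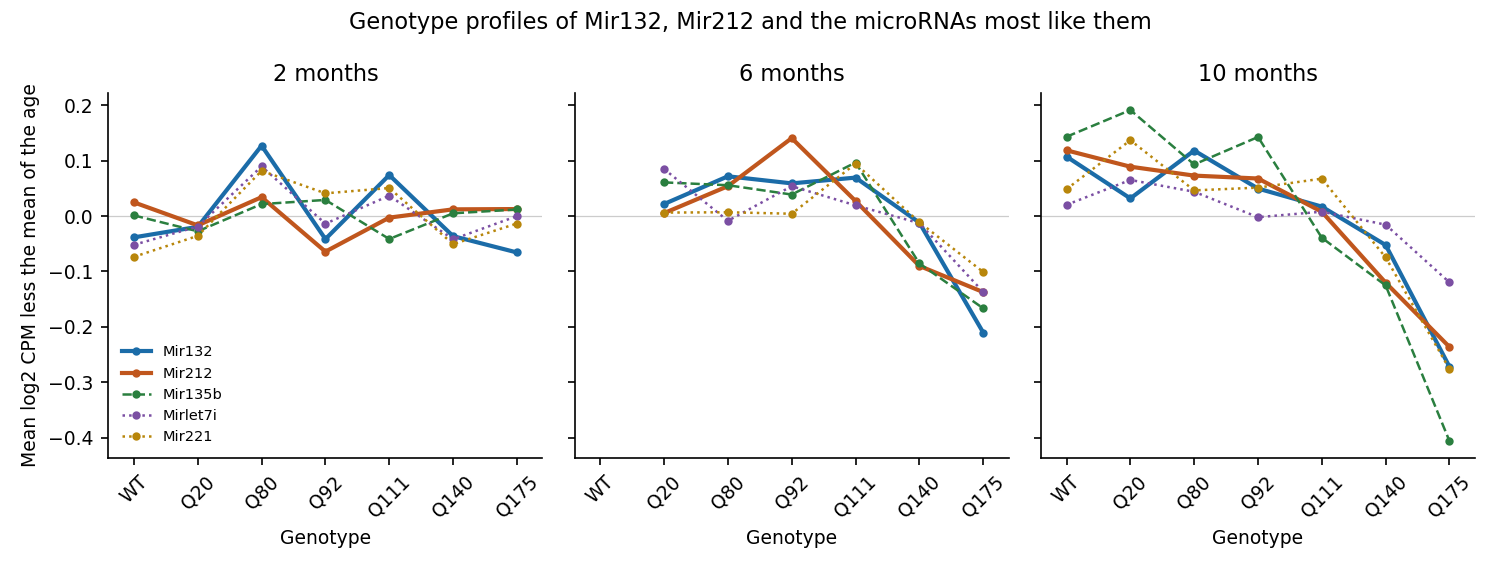
Mean log2 CPM of each genotype less the mean of its age (vertical) for Mir132 and Mir212 (solid lines) and the microRNAs Mir135b, Mirlet7i and Mir221 (broken lines) at 2, 6 and 10 months. The 6-month WT group is left out, and at 10 months all 5 lines are lowest in Q175 mice.

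Other microRNAs reported to respond to neuronal activity or clock input did not pass. The list held Mir134, Mir379, Mir329, Mir381 and Mir495 of the Dlk1-Dio3 cluster, with Mir134 known to act on dendritic spines through Limk1. It further held Mir184, Mir188, Mir137, Mir138-1, Mir138-2, Mir29a, Mir29b-1, Mir219a-1 and Mir219a-2. Of these 14 tested microRNAs 0 passed in either direction for CAG length at 2, 6 or 10 months or in the combined test. The same held in Q175 mice at 6 or 10 months, with edgeR or with DESeq2. Over all microRNAs the shares in these 6 tests were 0.0%, 2.75%, 8.84%, 11.9%, 2.77% and 12.2%. Whether the list differs from these shares was not tested. In the same order 0, 3, 1, 1, 1 and 1 of the 14 had an unadjusted p under 0.05. Their median log2 fold change in Q175 mice at 10 months was 0.01, beside -0.01 over all microRNAs tested, and their median combined Z was -0.25, beside 0.01. The summed level of the list in Q175 mice at 10 months, from 39359 to 43913 CPM, lay inside that of the controls, from 34554 to 44881 CPM. Mir410, chosen with them but outside the study's list, was not tested. At 10 months it ran from 5944 to 9147 CPM in Q175 mice and from 5970 to 9178 CPM in the controls. The paper names Mir138-2 as associated with CAG length in cortex at FDR 0.05 over 6 and 10 months. In the combined test here Mir138-2 had a Z of -1.66 (adjusted p = 0.285). The list is not shown with the study's outlier steps, and the cause of this difference was not tested.

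Markers of cell types were read from the same fits. Of 6 neuronal microRNAs, 3 fell in Q175 mice at 10 months, where 12.2% of all microRNAs passed: Mir128-2 (-0.20, SE 0.04, adjusted p = 0.00163), Mir128-1 (-0.16, SE 0.05, adjusted p = 0.0375) and Mir124a-3 (-0.42, SE 0.14, adjusted p = 0.0447). Mir124a-2 went the other way (0.25, SE 0.26, adjusted p = 0.603). Mir129-1 (-0.16, SE 0.08) and Mir129-2 (-0.22, SE 0.13) did not pass. The median of the 6 was -0.18, and their summed level ran from 42247 to 50622 CPM in Q175 mice and from 44658 to 57724 CPM in the controls. The Mir124a and Mir128 loci share a mature arm within each family, so the split of their reads between loci is uncertain. At 6 months, where 2.77% of all microRNAs passed, 0 of the 6 did (1 with an unadjusted p under 0.05, and 1 called by DESeq2). Their summed level was 39294 to 42320 CPM in Q175 mice, below the 42425 to 47651 CPM of Q20 mice. Mir124a-1, outside the study's list, ran from 5121 to 7033 CPM in Q175 mice and from 5483 to 8003 CPM in the controls at 10 months. Of the markers of oligodendrocytes (Mir219a-1 and Mir219a-2), microglia and blood leukocytes (Mir146), endothelium (Mir126a) and red blood cells (Mir144), 0 of 5 passed at either age with edgeR or DESeq2 (1, Mir126a, with an unadjusted p under 0.05 at 10 months). Their 10-month levels in Q175 mice and in the controls were 584 to 669 and 531 to 679 CPM for the sum of both Mir219a genes, 170 to 210 and 154 to 327 CPM for Mir146, 8753 to 10080 and 6966 to 10437 CPM for Mir126a, and 37.3 to 48.8 and 36.3 to 58.5 CPM for Mir144. Of the defining markers outside the study's list, Mir338 lay between 3885 and 4410 CPM in Q175 mice and 3021 and 4525 CPM in the controls, Mir451a between 302 and 356 CPM and 263 and 484 CPM, Mir486 between 1755 and 2329 CPM and 1832 and 2438 CPM, and the leukocyte marker Mir223 between 6.21 and 14.9 CPM and 6.82 and 17.9 CPM. No marker was at 0 in all libraries of a group. Among 3 choroid plexus and ciliated-cell markers Mir204 fell at 10 months (-0.72, SE 0.23, adjusted p = 0.0398). The others went the other way and did not pass, Mir211 at 0.28 (SE 0.18, adjusted p = 0.379) and Mir449a at 0.18 (SE 0.20, adjusted p = 0.623). The summed level of the 3 was 2528 to 3072 CPM in Q175 mice and 2474 to 10928 CPM in the controls. The part of these markers in the levels of Mir132 and Mir212 was not tested.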

How the data were processed

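Cortex small RNA of 168 mice was read as 36-base strand-specific single-end reads, which the authors called with CASAVA 1.8.2, clipped and aligned to mm10 with STAR. HTSeq is named for counting. The deposited values are estimated counts per transcript, 48.1% of those above 0 not whole (tolerance 1e-06), and FPKM. Estimated counts were rounded. FPKM served for the ratio only. Members and lists were chosen with earlier results of these data known. Of the 480 study microRNAs, 329 matched a row, and those with at least 1 count in a fit were tested with edgeR 4.0.16 in R 4.3.3 (TMM, robust quasi-likelihood F test, two-sided, Benjamini-Hochberg, FDR 0.05). Library totals covered all transcripts. Fits held the cage's sex and, for 6-month libraries, the library code (LB or V, 11 with V). Lane was the L number in a library's name, which in V libraries repeats the V number. For 2 mice labelled and cage sex differ. CAG length was per 100 repeats. The combined Z was the sum of the 6- and 10-month Z over the square root of their number. Intervals at 95% use the normal quantile. Genotype pairs, age and sex interactions were contrasts of joint fits. The ratio and correlations used permutation tests (SciPy 1.17.1). Named neighbours were the 5 with the highest r, with a pseudocount of 0.5 CPM. Depth was 2041741 to 11646287 counts per library. Fits were checked on simulated data. Alternatives included RLE scaling, library totals, DESeq2 1.42.0, other filters, features, covariates and controls, and the study's outlier steps as rebuilt from its methods. The closest replicate libraries differed by more than sampling noise (chi-square per degree of freedom at least 13.5).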

Additional observations from a re-analysis of the deposited data

Results flagged for a closer look

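Among 63 groups of 8 values, 7 held a mouse farther from the others than Dixon's 95% critical value allows, a test that chance passes in about 1 in 20 groups. Mir132 was at 10358 CPM in Q111 female F2 at 6 months, where the other mice lay between 6388 and 7435 CPM, and the ratio of Mir132 to Mir212 was 7.06 in the same mouse, with the others between 4.52 and 5.19. Mir212 was at 971 CPM in Q92 female F1 at 2 months (others 1384 to 1716 CPM), with a ratio of 7.55 (others 3.97 to 5.37). Mir212 was at 1242 CPM in Q80 female F3 at 10 months (others 1461 to 1576 CPM) and at 1400 CPM in Q80 male M5 at 2 months (others 1547 to 1648 CPM). The ratio was 8.15 in Q140 female F2 at 10 months (others 4.67 to 5.61). The study's outlier steps, as rebuilt here from its methods, removed Q92 F1 at 2 months and Q140 F2 at 10 months among 7 libraries. They kept the others named here. The paper does not say which libraries it removed.

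The CAG length coefficient of Mir212 differed between 10 and 2 months by -0.20 per 100 CAG (SE 0.04, adjusted p = 0.00116, edgeR quasi-likelihood test of the interaction), and it passed in each of 10 alternatives. The 2-month and 10-month libraries are numbered apart in their names, and the labels do not say whether they were sequenced apart.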

How the results depend on the processing

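The 10-month differences of Q175 mice from controls kept their direction and passed in all 11 alternatives run for each gene, from -0.38 to -0.32 for Mir132 and from -0.38 to -0.33 for Mir212. The 10-month and combined CAG associations passed in all alternatives but one. Without the Q175 mice the 10-month coefficients were -0.078 and -0.14, the combined Z -1.38 and -2.97, and the 6-month coefficient of Mir212 -0.052.

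The 6-month results depended on the settings. For Mir212 the CAG coefficient no longer passed with RLE scaling (-0.13), filterByExpr (-0.12), library totals alone (-0.11) or only LB libraries (-0.10), and for Mir132 it passed without the library code (-0.15). Q175 against Q20 mice no longer passed for Mir132 with 6-month WT libraries included (-0.23) or library totals alone (-0.22), and passed for Mir212 with all genotypes in one fit (-0.17), as did Q140 at 10 months (-0.22). The number of the 5 genotypes from which Q175 differed at 6 months, 4 for each gene, was 2 for both with the WT libraries included or with all transcripts tested, 1 for both with library totals alone, and 0 for Mir132 and 1 for Mir212 with only LB libraries, where Mir132 still passed against Q20 mice in the fit of both groups alone (-0.23). Q140 differed at 6 months from 1 genotype for Mir212, and from 0 with all transcripts, library totals alone or only LB libraries. At 10 months it differed from 0 for Mir212, but from 1 with DESeq2, Q20 controls alone or the outlier steps and from 2 with library totals alone, and for Mir132 from 1, but from 2 with the outlier steps. The age interaction of Mir132 passed with lane as a covariate (-0.19), library totals alone (-0.18) or the outlier steps (-0.17). The 2-month correlation between the genes passed with library totals alone (r = 0.30, permutation p = 0.0139). The causes were not tested.

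Replicate numbers name mice and do not pair them: same-numbered mice of one sex had mean correlations from -0.04 to -0.01 of their deviations, and 10, 3 and 5 mice correlated best with their own number at 2, 6 and 10 months. With the replicate block 1 of 46 tested values changed its call, the 6-month CAG coefficient of Mir132 (-0.14, adjusted p = 0.0376), and Q140 differed from 1 genotype for Mir132 at 6 months. In 37 tested values a sign changed where neither value passed, among them the 6-month coefficient of Mir132 without the Q175 mice (0.0088). At these depths each gene had at least 3065 counts per library, so the spread between mice and not counting limits the precision.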
